A study of Homo sapiens with 10 samples.

Results

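The 26S proteasome is the protease that degrades ubiquitin-tagged proteins, and the 46 genes described here encode its subunits, its activators and the factors that assemble it. They were chosen by name from the 23245 genes in each expression table, as every symbol made of PSMA, PSMB, PSMC, PSMD, PSME, PSMF or PSMG and a number, without PSMB8 and PSMB9. By role they comprise 8 genes of the core alpha ring, 9 of the core beta ring, 6 ATPases and 3 other subunits of the base, 8 subunits of the lid, 5 activators and regulators, and 7 assembly factors. The naming rule uses no measured value.

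PcTF is a synthetic activator made of the chromodomain of CBX8, which binds the silencing mark H3K27me3, joined to the red fluorescent protein mCherry and the activation domain VP64. In 3 human cancer lines, K562 from a leukaemia, U-2 OS from an osteosarcoma and SK-N-SH from a neuroblastoma, cells given 2 µg of PcTF plasmid with Lipofectamine LTX were compared with mock cells given the vehicle alone. RNA was taken at 48 h from K562 and at 96 h from both other lines. One more comparison set U-2 OS lines with a doxycycline-induced transgene against each other, PcTF against dTF, a version without the histone-binding domain, both after 96 h in 1 µg/mL doxycycline. U2OS-PcTF is an isogenic line with the transgene in a chromosome. The PcTF column of that comparison is the authors' mean of 3 libraries, namely 2 of U2OS-PcTF and the transfected U-2 OS library already used in the U-2 OS comparison. A mean of the 2 U2OS-PcTF libraries was therefore derived by taking the transfected library out. Each of the other 7 columns is 1 library, so no difference below has a replicate check, no test between conditions could be made, and the intervals given cover the counting of reads only.

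The 7 libraries with a column of their own held an estimated 4.27e+06 to 7.38e+06 reads. The depth of the 2 U2OS-PcTF libraries, present only within a mean, was not estimated. CBX8, whose sequence is part of PcTF, was higher in each PcTF library than in its mock library, being 0.610 against 6.43 FPKM in U-2 OS, 0.287 against 8.85 FPKM in SK-N-SH, and 1.59 against 14.3 FPKM in K562. FPKM scales reads by transcript length and library size, so that levels can be compared between genes, and pairs of FPKM values below give mock against PcTF. Markers of K562 and SK-N-SH were highest in the line they mark: GATA1, an erythroid regulator, was at 55.1 FPKM in mock K562 and 0 in both other mock lines, and GATA3, which neuroblasts express among other cells, was at 14.8 FPKM in mock SK-N-SH, 1.00 FPKM in mock U-2 OS and 0.0745 FPKM in mock K562. The mesenchymal collagen genes looked at for U-2 OS did not set it apart, since COL1A1 was at 28.7 FPKM in mock U-2 OS and 441 FPKM in mock SK-N-SH, and COL5A1 at 7.13 and 9.86 FPKM. Transfected cells were not sorted as far as the methods state, so each library mixes cells with and without PcTF, and fewer responding cells cannot be told apart from a smaller response per cell.

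The core of the proteasome is a barrel of stacked rings. The outer alpha rings gate the channel, and the inner beta rings hold the 3 proteolytic subunits PSMB5, PSMB6 and PSMB7. Interferon replaces these with PSMB8, PSMB9 and PSMB10 to form the immunoproteasome, and it also induces PSME1 and PSME2, which form the PA28 cap, so that the peptides made are better suited to presentation by MHC class I. The regulatory particle, which caps the barrel, has a base of ATPases that unfolds substrates and a lid that removes ubiquitin. NFE2L1 and its relatives bind antioxidant response elements and raise the subunit genes together when the proteasome is inhibited.

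Promoter windows of 250 bases before to 50 bases after the start site, from RefSeq on GRCh38.p14, were matched for 40 of the 46 genes and searched on both strands for 3 motifs. The interferon-stimulated response element (ISRE), searched as GAAA, any 2 bases and GAAA, was in the windows of PSMA4, PSMB4, PSMB10, PSME1, PSME2 and PSMG4, that is in 6 of the 40 genes. Some genes have several windows, and the ISRE was in 12.5% of the 48 windows of these genes and 3.57% of all 34796 windows. The antioxidant response element, searched as TGACNNNGC, was in 14 of the 40 genes, or 29.2% of their windows, and 13.3% of all windows. The CCAAT box, searched as CCAAT, was in 19 of the 40 genes, or 39.6% of their windows, near the 34.6% of all windows. The ISRE can also overlap itself, and none of the 3 motifs contains another. The ISRE stretches are shown because 3 of their genes were the ones 2-fold above mock in both lines other than K562. Each is 100 bases long and lies before the start site, with the ISRE in capitals and everything else in lower case. PSMB10 is at chr16:67936851-67936950 on the minus strand with the motif beginning at position -21, PSME2 at chr14:24146611-24146710 on the minus strand (-28), PSMG4 at chr6:3258847-3258946 on the plus strand (-33), PSMB4 at chr1:151399460-151399559 on the plus strand (-68) and PSMA4 at chr15:78540155-78540254 on the plus strand (-240).
PSMB10: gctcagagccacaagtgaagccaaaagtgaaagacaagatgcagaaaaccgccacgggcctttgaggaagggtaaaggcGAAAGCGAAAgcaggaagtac
PSME2: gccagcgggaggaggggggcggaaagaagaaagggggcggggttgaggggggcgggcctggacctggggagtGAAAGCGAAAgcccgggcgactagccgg
PSMG4: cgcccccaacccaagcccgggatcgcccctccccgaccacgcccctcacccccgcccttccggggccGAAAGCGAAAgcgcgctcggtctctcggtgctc
PSMB4: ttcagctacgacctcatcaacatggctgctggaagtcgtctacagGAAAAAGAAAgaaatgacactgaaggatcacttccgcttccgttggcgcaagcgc
PSMA4: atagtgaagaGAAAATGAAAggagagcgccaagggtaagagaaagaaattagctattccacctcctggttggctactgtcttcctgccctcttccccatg

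The first 3 stretches hold the same capitals, within 33 bases of the start site. The ISRE of PSME1 begins 6 bases into the window's transcribed part, on the minus strand. A match of letters is a description and not a site of binding.

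Of the 46 genes, 44 were above 0 FPKM in all columns. The other two, PSMA8, an alpha subunit of the testis, and PSMB11, a beta subunit of the thymus, were listed at 0 in every column. The median over the 44 genes was 19.98 FPKM in mock U-2 OS, 31.7 in mock SK-N-SH and 66.4 in mock K562, and 44.3 FPKM in U2OS-dTF. Together the genes made up 0.561% of summed FPKM in mock U-2 OS, 0.565% in mock SK-N-SH and 0.756% in mock K562. The tables were normalised separately, so these levels are set side by side and not tested.

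**Figure D1:**
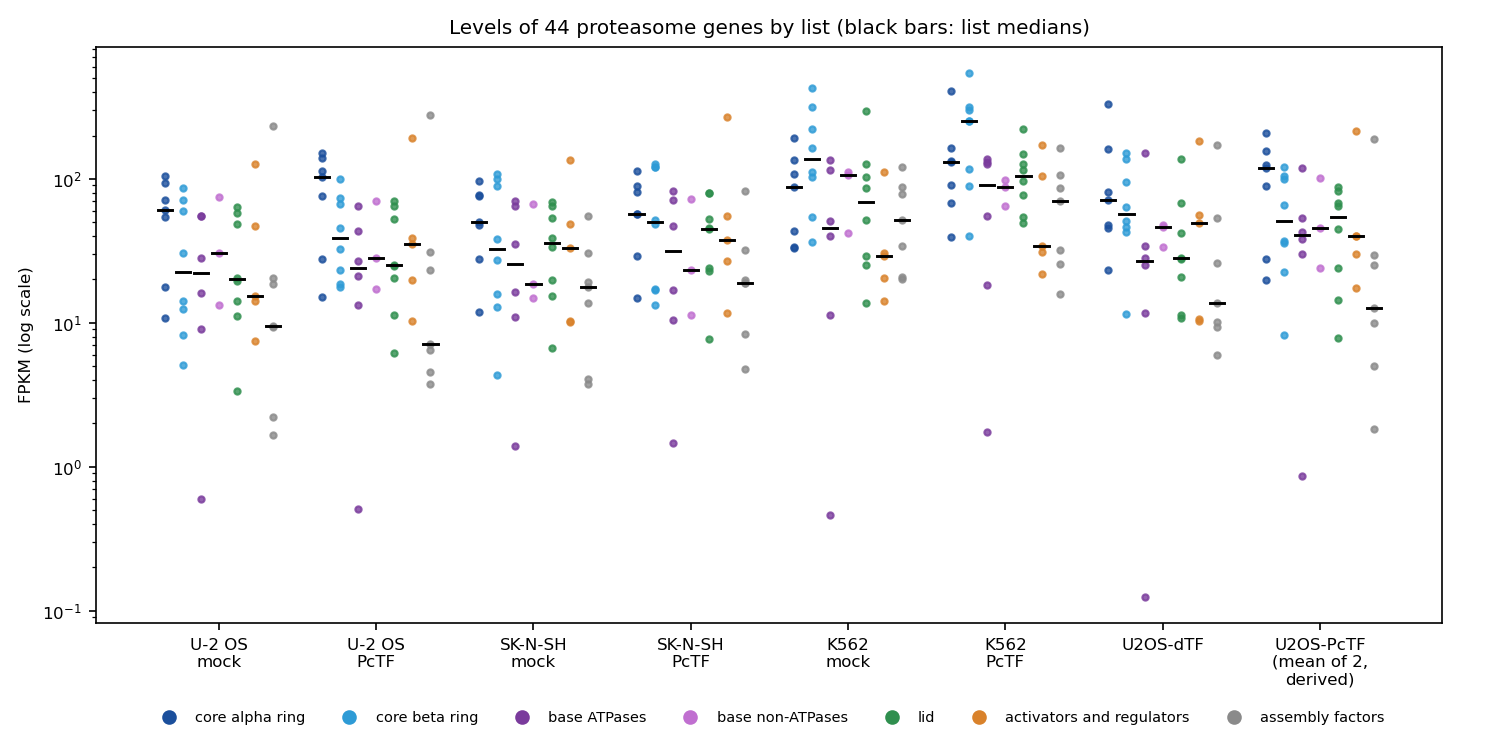
FPKM of the 44 detected proteasome genes on a log scale in 7 single libraries and in the derived mean of 2 U2OS-PcTF libraries. Each point is a gene, colours mark the 7 lists and black bars the list medians. The core beta ring is highest in K562, and the lowest point in every column is PSMC1, at 0.125 to 1.76 FPKM.

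The order of levels differed among the lines. PSMG2, an assembly chaperone of the alpha ring, was the highest gene in mock U-2 OS at 235 FPKM, PSME1 the highest in mock SK-N-SH at 135 FPKM, and PSMB1, a beta subunit without proteolytic activity, the highest in mock K562 at 428 FPKM. Over the 44 genes the rank correlation of levels was 0.91 between mock U-2 OS and mock SK-N-SH, 0.61 between mock U-2 OS and mock K562, and 0.65 between mock SK-N-SH and mock K562. Between mock and PcTF libraries of a line it was 0.84 for K562, 0.97 for SK-N-SH and 0.94 for U-2 OS. These values share gene lengths and, within a table, the scaling, and genes are not independent replicates.

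PSMC1, which encodes an ATPase of the base that every proteasome needs, was at 0.592 against 0.506 FPKM in the mock and PcTF libraries of U-2 OS, 1.39 against 1.47 FPKM in SK-N-SH, and 0.463 against 1.76 FPKM in K562. The other ATPases were at 9.07 FPKM or more in the same libraries. Of the windows of 50 bases along its coding sequence, 98.7% were found elsewhere in GRCh37, mostly at the processed pseudogene PSMC1P1 on chromosome 3 (68684856–68686175). The next highest shares were 47.3% for PSMC6, 35.0% for PSMA6, 25.05% for PSMD4 and 22.0% for PSME2, and the reads were 50 bases long. In GENCODE a second gene model on the same strand also covers 91.0% of the coding bases of PSMA1, 100% of PSMA2, 89.7% of PSMA6 and 68.3% of PSMD9, and NRDE2 on the opposite strand covers 47.7% of PSMC1. The levels of these genes, PSMC1 above all, are uncertain, and the way such reads were shared out was not tested.

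**Figure D2:**
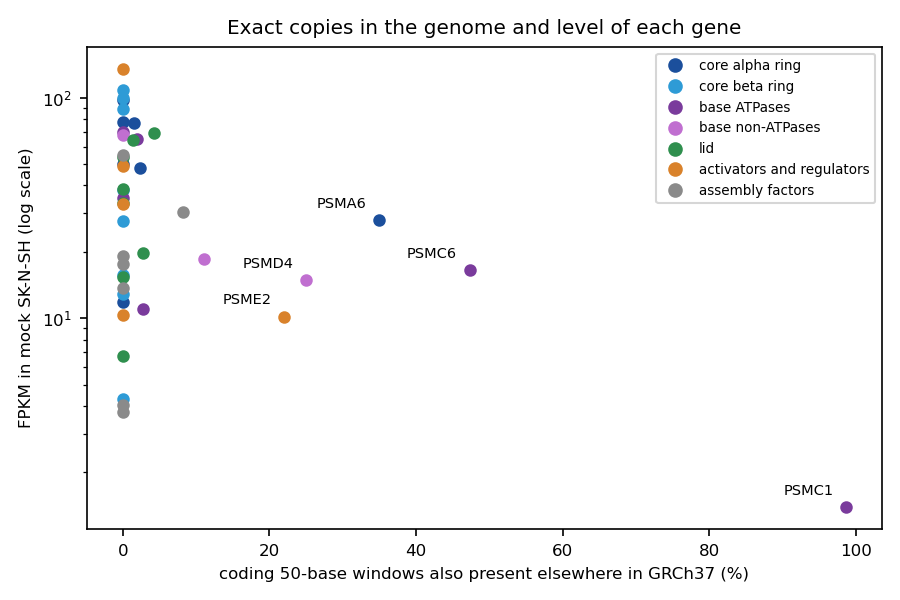
Level of each proteasome gene in mock SK-N-SH (FPKM, log scale) against the share of its coding windows of 50 bases that recur elsewhere in GRCh37. Each point is a gene, coloured by list. PSMC1, with 98.7% of windows recurring, lies below all others at 1.39 FPKM, and PSMC6, PSMA6, PSMD4 and PSME2 lie at 10.2 to 27.8 FPKM.

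The comparison of PcTF with mock in each line asked which genes differ in cells given the PcTF plasmid. Mock cells were given the vehicle alone, so PcTF and the delivery of plasmid DNA cannot be told apart in it. In U-2 OS, 5 of the 43 proteasome genes with 1 FPKM or more in either library were at least 2-fold higher with PcTF and 0 were 2-fold lower. Over all 12411 genes passing the same filter, 12.0% were 2-fold higher and 5.59% lower, so the members' share of 11.6% higher was near the background. With a minimum of 10 FPKM, 3 of 38 members were 2-fold higher, beside 8.14% of 5565 genes higher and 3.54% lower. The median log2 ratio of the members was 0.39, against 0.08 over all genes, and 36 of the 43 lay above 0 (83.7%, against 55.6% of all genes). Ratios are of FPKM + 0.1 throughout, which understates those of low genes. Members were also less spread than genes at large, with an SD of 0.54 against 1.43 on the log2 scale.

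In SK-N-SH, 3 of 44 genes were 2-fold higher (6.82%) and 0 lower, beside a background of 5.79% higher and 2.69% lower over 11954 genes. The median log2 ratio was 0.24 against 0.10, and 41 of the 44 lay above 0 (93.2%, against 61.9% of all genes). In K562, 9 of 44 were 2-fold higher (20.5%) and 2 lower (4.55%), beside a background of 28.6% higher and 11.7% lower over 11553 genes. The K562 median was 0.58 against 0.37 for all genes, and 36 of the 44 lay above 0 (81.8%, against 63.9% of all genes). So the share of members past 2-fold in K562 was below that of all genes in both directions. The members are highly expressed, with a median percentile of 95.5 among all genes in mock K562. No background matched for level was made there, so the part of level in this difference was not tested.

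Of the 44 genes detected in all libraries of the 3 lines, 29 were past 2-fold in none of the lines, beside 60.3% of the 11226 genes above 0 FPKM in the same 6 columns. PSMB3, PSMB10, PSME2 and PSMG4, 4 of the 44, were 2-fold higher in 2 lines each (4.64% of all genes), and 0 were higher in all 3 (0.312%). The ratio was above 0 in all 3 lines for 28 of the 44 genes (25.5% of all genes) and below 0 in all 3 for 0 genes (7.69%). All members of the core alpha ring that were detected, 7 of 7, lay above 0 in each of the 3 lines, where 55.6% to 63.9% of all genes did. Not all lay above the median of all genes, which was 0.37 in K562 and 0.10 in SK-N-SH. Below it were PSMA1 (0.27), PSMA2 (0.26) and PSMA3 (0.29) in K562, and PSMA1 (0.09) and PSMA6 (0.08) in SK-N-SH. The rest of the ring lay above it in each line. Their 95% counting intervals lay above 0 for 6 of the 7 genes in U-2 OS, 6 in K562 and only 1, PSMA7, in SK-N-SH. Most SK-N-SH differences of this ring were therefore not detectable from coding reads.

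**Figure D3:**
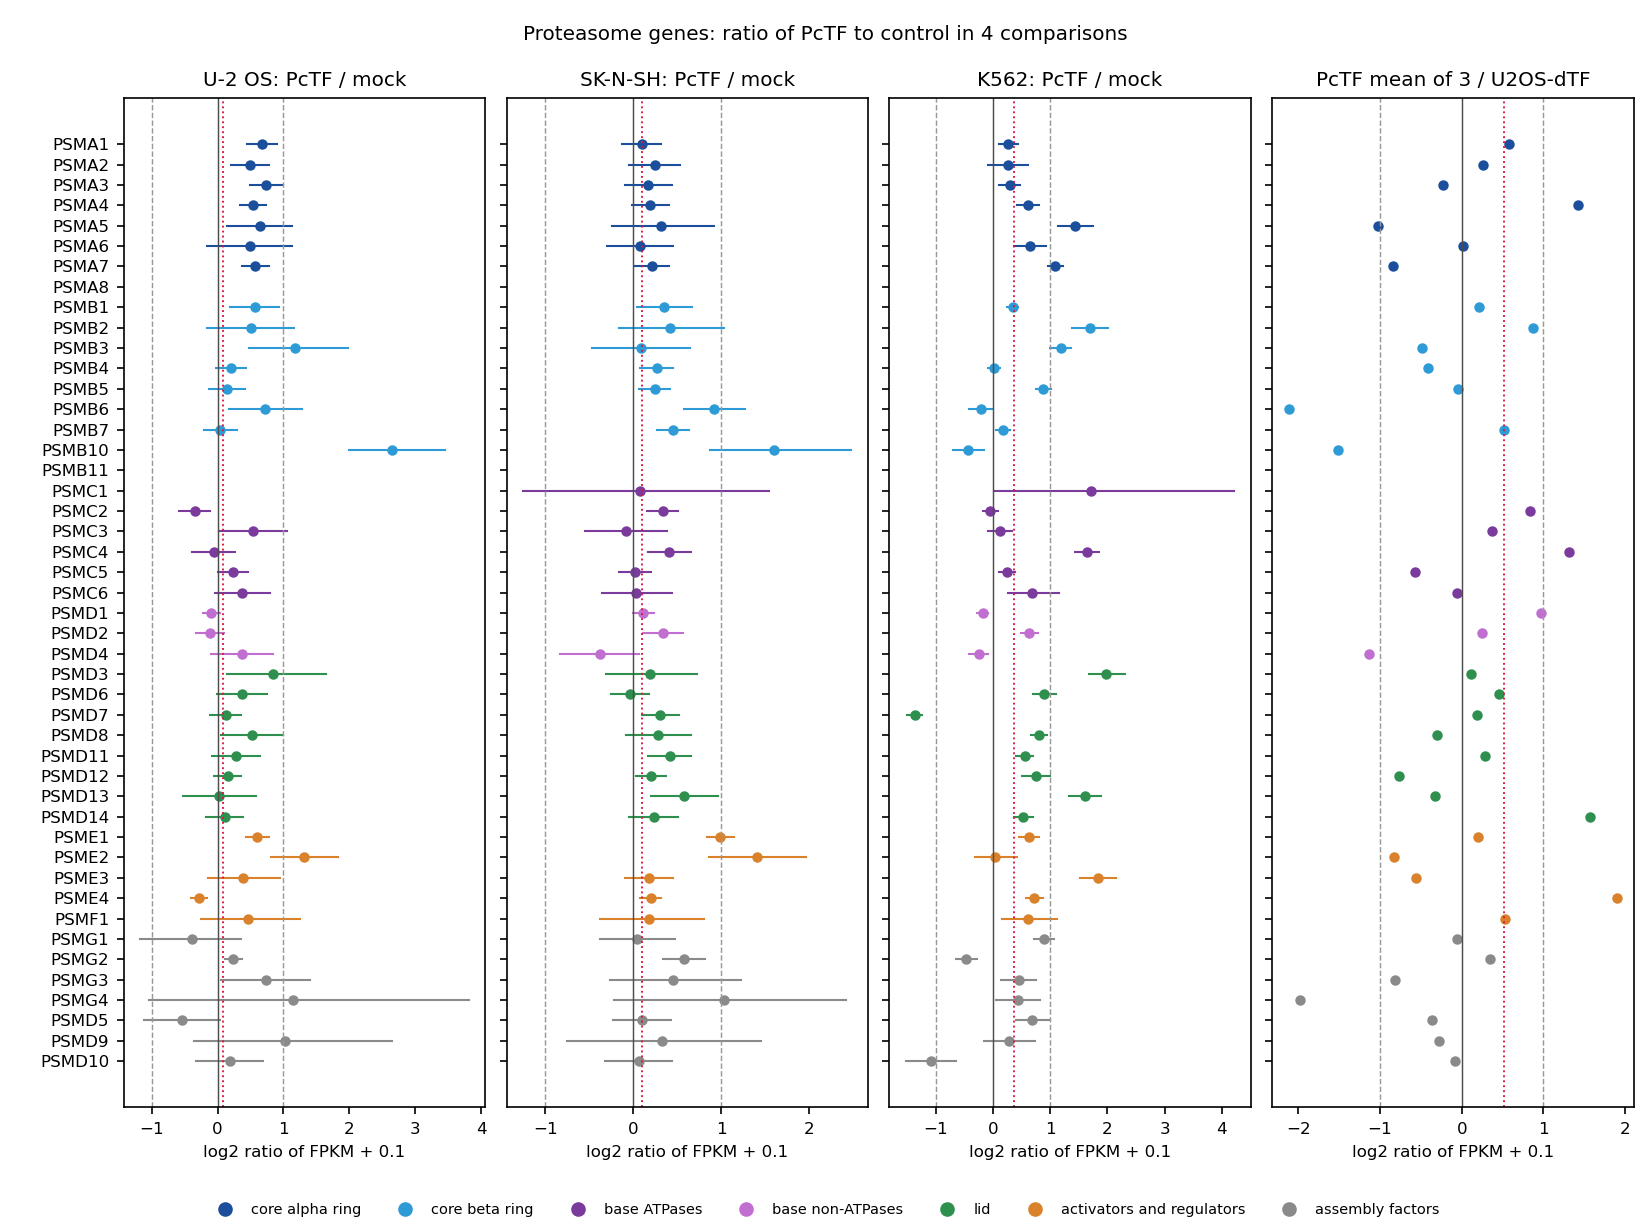
Log2 ratio of FPKM + 0.1 for each proteasome gene in the 4 comparisons. Points are genes coloured by list, horizontal bars are 95% counting intervals (none in the last panel, where the numerator is a mean of 3 libraries), dashed lines mark 2-fold and the red dotted line the median of all genes. PSMB10 stands at -0.43 in K562 but 1.60 in SK-N-SH and 2.65 in U-2 OS, and most other genes lie between the dashed lines.

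Of the interferon-inducible genes, PSMB10 had the highest and PSME2 the next highest ratio of all members in SK-N-SH and in U-2 OS. PSME1 did not stand out in U-2 OS, where its ratio of 0.60 was below those of several other members, such as PSMB3 (1.18). PSMB10 (hg19 chromosome 16, 67968407–67970780, 8 exons), the inducible counterpart of PSMB7, was at 5.10 against 32.6 FPKM in U-2 OS, 4.32 against 13.3 FPKM in SK-N-SH, and 54.3 against 40.2 FPKM in K562. Its log2 ratio was 2.65 in U-2 OS (95% counting interval 2.00 to 3.46, from about 20 and 114 coding reads), 1.60 in SK-N-SH (0.88 to 2.48) and -0.43 in K562 (-0.71 to -0.15). Thus PSMB10 was higher with PcTF in the lines where mock cells had little of it, and lower in K562, where mock cells had more than 10 times the FPKM of mock U-2 OS. In GENCODE 59.95% of its coding bases are also in a second gene model on the same strand, and how the authors' counting treated such a model is not given in the sources used here.

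PSME2 (chromosome 14, 24612574–24615855, 11 exons), the beta subunit of PA28, was at 14.1 against 35.1 FPKM in U-2 OS, 10.2 against 27.0 FPKM in SK-N-SH, and 30.4 against 31.3 FPKM in K562. Its log2 ratios were 1.31 (0.81 to 1.83), 1.403 (0.86 to 1.96) and 0.04 (-0.32 to 0.42). Its partner PSME1 (chromosome 14, 24605378–24610797, 11 exons), the alpha subunit, stood much higher in mock cells. It was at 126 against 192 FPKM in U-2 OS, 135 against 268 FPKM in SK-N-SH, and 111 against 171 FPKM in K562. The PSME1 ratios were 0.60 (0.43 to 0.78), 0.99 (0.84 to 1.14) and 0.62 (0.45 to 0.80), so it lay just under the 2-fold threshold in SK-N-SH and was higher with PcTF in all 3 lines.

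PSMG4 (chromosome 6, 3259162–3268300, 3 exons) encodes an assembly chaperone of the alpha ring and is the remaining gene past 2-fold in the same 2 lines. It was at 1.66 against 3.78 FPKM in U-2 OS, 4.05 against 8.36 FPKM in SK-N-SH, and 51.7 against 69.7 FPKM in K562. The estimated coding reads were few, about 8 and 20 for SK-N-SH, with 3 and 6 for U-2 OS. Its log2 ratio of 1.14 in U-2 OS had an interval of -1.04 to 3.81 and that of 1.03 in SK-N-SH one of -0.22 to 2.42. The difference was therefore not detectable from coding reads in either line.

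Genes with an ISRE in the promoter were compared with those without over the whole table, as a description. In U-2 OS 23.9% of 360 genes with the motif were 2-fold higher, against 10.0% of 8204 without it. In SK-N-SH the shares were 14.3% and 4.07%, and in K562 25.5% and 27.5%. Among the 6 members with the motif, 0 were 2-fold higher in K562, 3 in SK-N-SH and 3 in U-2 OS. The 3 were PSMB10, PSME2 and PSMG4 in both lines, and both PSMG4 intervals included 0. The motifs were chosen with earlier results of these data known, so these counts describe the members and are not separate evidence. The members with the motif that did not reach 2-fold in any line were PSME1, PSMB4 and PSMA4. PSMB4, a beta subunit without proteolytic activity, was at 86.3 against 99.3 FPKM in U-2 OS, 100 against 120 FPKM in SK-N-SH, and 314 against 318 FPKM in K562. PSMA4 was at 104 against 151 FPKM, 77.4 against 88.6 FPKM, and 88.4 against 134 FPKM in the same order. Of the 14 members with an antioxidant response element, 3 were 2-fold higher in K562, 1 in SK-N-SH and 3 in U-2 OS. Over the whole table the shares with and without that element were 29.3% against 26.9% in K562, 4.33% against 4.53% for SK-N-SH, and 11.1% against 10.5% for U-2 OS, so genes with it were close to genes without it.

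PSMB8 and PSMB9, the remaining inducible subunits, are not among the 46 genes. They were listed at 0 in every column, and the tables place them on an alternative haplotype sequence of chromosome 6, so their levels could not be read.

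**Figure D4:**
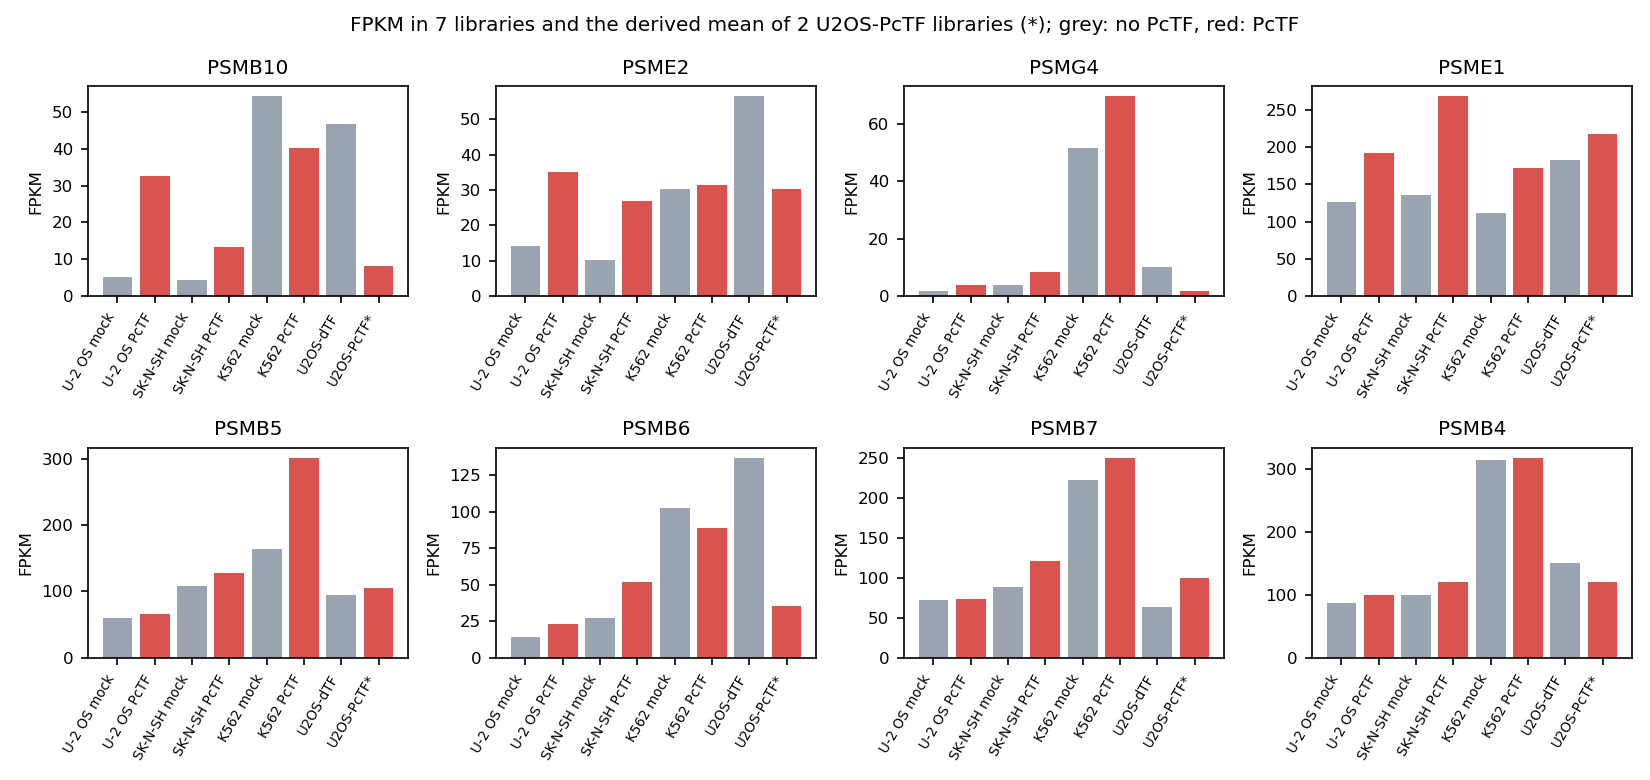
FPKM of 8 proteasome genes in 7 single libraries and in the derived mean of 2 U2OS-PcTF libraries (marked with an asterisk), on linear axes from 0, with grey bars for columns without PcTF and red bars for columns with it. PSMB10 and PSME2 are higher with PcTF in SK-N-SH and in U-2 OS, and U2OS-dTF, which has no PcTF, exceeds U2OS-PcTF for PSMB10 at 46.7 against 8.18 FPKM.

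The constitutive proteolytic subunits differed among themselves and between lines. PSMB5, which carries the chymotrypsin-like activity, was at 60.2 against 66.5 FPKM in U-2 OS (log2 ratio 0.14), 108 against 128 FPKM in SK-N-SH (0.24), and 165 against 302 FPKM in K562 (0.88, interval 0.74 to 1.01). PSMB6, with the caspase-like activity, was at 14.1 against 23.3 FPKM (0.71), 27.5 against 52.0 FPKM (0.92) and 103 against 88.7 FPKM (-0.21). PSMB7, with the trypsin-like activity, was at 71.8 against 73.7 FPKM (0.04), 89.0 against 122 FPKM (0.45) and 223 against 251 FPKM (0.17). In SK-N-SH all 3 intervals lay above 0, whereas in U-2 OS this held for PSMB6 alone.

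Of the rest of the core, the alpha ring was the most even list in U-2 OS, with log2 ratios from 0.49 to 0.74 over 7 genes and a median of 0.57. In SK-N-SH the same 7 genes ranged from 0.08 to 0.32, and in K562 from 0.26 to 1.43. PSMA5 was at 33.5 against 90.5 FPKM in K562 (1.43) and PSMA7 at 191 against 406 FPKM (1.09), and both were past 2-fold in K562 alone of the 3 lines. Among the beta subunits PSMB3 was at 8.19 against 18.7 FPKM in U-2 OS (1.18, interval 0.48 to 1.98), 15.7 against 16.8 FPKM in SK-N-SH (0.09) and 112 against 254 FPKM in K562 (1.18). PSMB2 was at 36.3 against 117 FPKM in K562 (1.69), compared with 12.5 against 17.8 FPKM in U-2 OS and 12.9 against 17.2 FPKM in SK-N-SH.

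The base ATPases, which form the ring that threads substrates into the core, had a median log2 ratio of 0.24 in U-2 OS, and medians of 0.05 for SK-N-SH and 0.47 for K562. PSMC4 was at 40.3 against 126 FPKM in K562 (1.64) but 28.0 against 26.9 FPKM in U-2 OS (-0.06). The ATPase furthest below mock in U-2 OS was PSMC2, at 55.3 against 43.4 FPKM (-0.35). In SK-N-SH PSMC3 (-0.08), PSMC5 (0.02) and PSMC6 (0.03) were among the 5 lowest members. PSMC1 passed 2-fold in K562 (1.72, interval 0.02 to 4.22) on about 3 and 17 coding reads, with the limit on its mapping given above.

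The 3 other base subunits include receptors for ubiquitin and its shuttles and had medians, in the same order, of -0.10, 0.11 and -0.18. PSMD2 was at 30.4 against 28.1 FPKM in U-2 OS (-0.11). PSMD4, a ubiquitin receptor, was the lowest member in SK-N-SH at 14.8 against 11.4 FPKM (-0.38) and among the 5 lowest in K562 at 106 against 88.5 FPKM (-0.26).

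The lid held both extremes of K562. PSMD3, a PCI-domain subunit, was at 13.7 against 54.2 FPKM (1.97, interval 1.68 to 2.30), and PSMD7, the partner of the deubiquitinase subunit PSMD14, at 297 against 114 FPKM (-1.37, interval -1.502 to -1.247). PSMD13 was at 25.4 against 77.2 FPKM (1.60). In U-2 OS PSMD7 was at 64.2 against 70.2 FPKM and in SK-N-SH at 64.6 against 79.9 FPKM, so mock K562 stood apart and the PcTF library lay nearer to the other lines. A second gene model on the opposite strand covers 30.0% of the coding bases of PSMD7, and reads of both cannot be told apart without strand. In SK-N-SH PSMD6 was among the 5 lowest, at 53.8 against 52.4 FPKM (-0.04). The lid medians were 0.22, 0.26 and 0.77 in the order used above.

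Of the other activators, PSME3, which forms the nuclear PA28 gamma cap, was at 28.98 against 104 FPKM in K562 (1.84, interval 1.53 to 2.15) and at 15.2 against 19.96 FPKM in U-2 OS (0.39). PSME4, the large activator PA200, was at 47.4 against 39.0 FPKM in U-2 OS (-0.28) and 20.5 against 33.9 FPKM in K562 (0.72). PSMF1, an inhibitor of the core, ranged from 7.46 to 21.7 FPKM over the mock and PcTF libraries of the 3 lines, with ratios of 0.46, 0.18 and 0.62.

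The assembly factors had medians of 0.24, 0.32 and 0.43 in the same order. PSMG1 and PSMG2 form a chaperone pair for the alpha ring. PSMG1 was at 9.30 against 7.07 FPKM in U-2 OS (-0.39, interval -1.18 to 0.35, about 39 and 26 coding reads), 19.2 against 19.8 FPKM in SK-N-SH (0.05) and 87.9 against 163 FPKM in K562 (0.89). PSMG2 was at 235 against 277 FPKM (0.24), 54.9 against 82.2 FPKM (0.58) and 121 against 87.1 FPKM (-0.47) in the same order. The paired factors thus lay on opposite sides of mock in K562, while the PSMG1 difference in U-2 OS was not detectable from coding reads. PSMG3, the partner of PSMG4, was at 18.5 against 30.9 FPKM (0.73), 13.7 against 18.8 FPKM (0.45) and 78.5 against 107 FPKM (0.44).

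The remaining assembly factors are chaperones of the base. PSMD5 was the lowest member in U-2 OS, at 9.46 against 6.45 FPKM (-0.54), and was at 17.7 against 19.0 FPKM in SK-N-SH and 19.996 against 32.1 FPKM in K562. PSMD9 was at 2.20 against 4.58 FPKM in U-2 OS (1.02, interval -0.35 to 2.64, about 7 and 13 coding reads), 3.78 against 4.75 FPKM in SK-N-SH and 21.0 against 25.5 FPKM in K562. PSMD10, also known as the oncoprotein gankyrin, was at 20.3 against 23.1 FPKM in U-2 OS, 30.5 against 31.8 FPKM in SK-N-SH, and 34.0 against 15.9 FPKM in K562 (-1.09, interval -1.53 to -0.66). PSMD7 and PSMD10 were the 2 members at least 2-fold lower in K562.

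The fourth comparison set PcTF against dTF, which lacks the histone-binding domain. Its numerator mixes 2 libraries of U2OS-PcTF with the transfected library, and its denominator is 1 library of U2OS-dTF. The domain, the line and the way the transgene was delivered therefore cannot be told apart in it. Of 43 members, 4 were 2-fold higher in the PcTF mean of 3 libraries and 5 lower, beside 36.1% of 13022 genes higher and 14.5% lower. The median was -0.05 against 0.52 over all genes, and 21 of the 43 ratios were above 0 (48.8%, against 65.0% of all genes). Without the transfected library, 5 members were 2-fold higher and 4 lower with a median of 0.14, beside a background of 37.0% higher and 13.5% lower. With ratios centred on the median of the genes with 1 FPKM or more in both columns, which shifts them by 0.31, 4 were higher and 9 lower. With columns scaled by the upper quartile, 7 were higher and 3 lower.

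Among members at 1 FPKM or more in either column, those highest in PcTF over U2OS-dTF were PSME4, PSMD14, PSMA4, PSMC4 and PSMD1. PSME4 was at 10.6 FPKM in U2OS-dTF, 39.9 FPKM in the mean of 3 and 40.4 FPKM in the derived mean of 2 (log2 ratio of the mean of 3, 1.90). With the values given as U2OS-dTF, mean of 3 and derived mean, PSMD14, the deubiquitinase of the lid, was at 21.0, 62.7 and 67.7 FPKM (1.58), PSMA4 at 47.9, 129 and 118 FPKM (1.43), and PSMC4 at 11.7, 29.1 and 30.2 FPKM (1.31). PSMD1, a scaffold of the base, was at 46.6, 91.6 and 102 FPKM (0.97) and passed 2-fold without the transfected library.

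The lowest members were PSMB6, PSMG4, PSMB10, PSMD4 and PSMA5. PSMB6 was at 137 FPKM in U2OS-dTF, 31.5 FPKM in the mean of 3 and 35.7 FPKM in the derived mean (-2.12). PSMG4 was at 10.1, 2.48 and 1.83 FPKM (-1.98), and PSMB10 at 46.7, 16.3 and 8.18 FPKM (-1.51). PSMB10 is the member most affected by the pooling, since the derived mean gave -2.50. PSMD4 was at 47.7, 21.6 and 23.9 FPKM (-1.14), and PSMA5 at 45.6, 22.4 and 19.8 FPKM (-1.02).

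For PSMB10 and PSME2 the U2OS-dTF library held more transcript than the PcTF-transfected U-2 OS library. PSMB10 was at 5.10 FPKM in mock U-2 OS, 32.6 FPKM in transfected U-2 OS, 46.7 FPKM in U2OS-dTF and 8.18 FPKM in the derived U2OS-PcTF mean. PSME2 stood at 14.1, 35.1, 56.6 and 30.2 FPKM in the same order. All of these columns thus lay above mock for both genes, and the derived U2OS-PcTF mean was the nearest to mock for both. Genes with an ISRE at large did not follow these genes in U2OS-dTF. Of 356 such genes, 23.3% were 2-fold higher in U2OS-dTF than in mock U-2 OS and 43.0% lower. The shares were 27.9% and 30.8% for 8391 genes without the motif. Among the 6 members with it, 3 were higher and 1 lower.

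U2OS-dTF also differed from mock U-2 OS over the members as a whole. Of 43 members, 19 were 2-fold higher in U2OS-dTF and 4 lower, beside a background of 28.1% higher and 32.0% lower over 12660 genes, and the median log2 ratio was 0.72 against -0.14. PSMB6 was the highest (3.27, 14.1 FPKM in mock U-2 OS) and PSME4 the lowest (-2.15). These columns come from tables normalised separately. The line, the transgene, doxycycline and the vehicle given to mock cells all differ between these columns and cannot be told apart. Because U2OS-dTF is the denominator of the fourth comparison, its own level enters every ratio there.

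Coding length moved with the ratios in most comparisons, but little in K562, and in SK-N-SH only over the members. Over the members, the rank correlation of the log2 ratio with coding length was -0.64 for U-2 OS, -0.32 for SK-N-SH, 0.11 for K562, 0.36 for PcTF over U2OS-dTF and -0.35 for U2OS-dTF over mock. Over all genes with a coding length it was -0.24, 0.02, -0.04, 0.25 and -0.26. The short members PSMG3, at 366 coding bases, PSMG4, at 369, and PSMB3, at 615, were on the high side in U-2 OS. PSME4, the longest at 5529, was below 0 there and the highest member over U2OS-dTF. The part of transcript length in these differences was not tested.

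**Figure D5:**
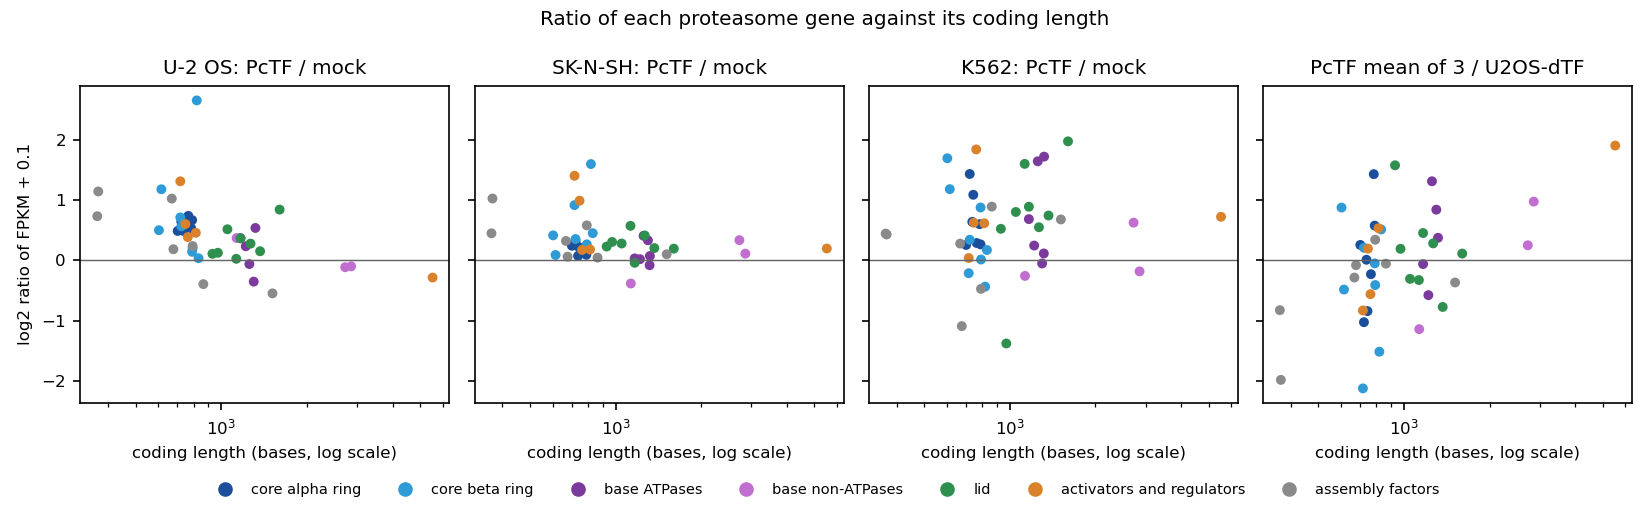
Log2 ratio of FPKM + 0.1 of each proteasome gene against its coding length in bases (log scale) in the 4 comparisons, with points coloured by list. In U-2 OS the points fall from left to right (rank correlation -0.64), and over U2OS-dTF they climb (0.36), with PSME4 at 5529 bases the rightmost point of each panel.

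Genes of the same pathway outside the naming rule were followed as a list of 24, comprising other proteasome factors, the NFE2L1 activation pathway, shuttle proteins, ubiquitin genes and UBA1. In U-2 OS 2 of the 24 were 2-fold higher (8.33%) and 0 lower, beside the background of 12.0% and 5.59%. Among them was SHFM1, a small lid subunit, at 33.4 against 69.0 FPKM (1.04). In SK-N-SH 1 was 2-fold higher (4.17%, beside 5.79% of all genes) and 0 lower. It was DDI2, the protease that activates NFE2L1, at 5.83 against 11.8 FPKM (1.01).

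In K562 7 of the 24 were 2-fold higher (29.2%) and 1 lower (4.17%), beside 28.6% and 11.7% of all genes, so the share higher was near the background. TXNL1, a thioredoxin bound to the regulatory particle, was at 31.3 against 118 FPKM (1.91), and the deubiquitinases UCHL5 and USP14 at 33.3 against 94.4 FPKM (1.502) and 19.5 against 42.8 FPKM (1.13). DDI2 was at 15.1 against 39.5 FPKM (1.38), the ubiquitin receptor ADRM1 at 34.6 against 86.0 FPKM (1.31), the ligase UBE3C at 11.4 against 25.96 FPKM (1.18), and UBA1, the main ubiquitin-activating enzyme, at 45.9 against 102 FPKM (1.15). The shuttle gene RAD23B was at 105 against 48.2 FPKM (-1.12). NFE2L1 itself passed 2-fold in none of the 3 lines, with ratios of 0.45, 0.17 and -0.41.

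Against U2OS-dTF, named first in the pairs here, 4 of the 24 were 2-fold higher (16.7%) and 8 lower (33.3%), beside 36.1% and 14.5% of all genes. DDI2 was at 2.07 FPKM in U2OS-dTF and 7.50 FPKM in the PcTF mean (1.81), USP14 at 26.04 against 58.8 FPKM (1.17), the shuttle gene UBQLN1 at 32.2 against 69.7 FPKM (1.11), and KIAA0368, a proteasome adaptor, at 8.61 against 18.6 FPKM (1.098). The lower genes included SHFM1 at 578 against 95.1 FPKM (-2.60) and POMP, the maturation factor of the core, at 87.2 against 22.2 FPKM (-1.97). RPS27A (-1.60), UBQLN4 (-1.55), ADRM1 (-1.17) and PAAF1 (-1.16) were also 2-fold lower. USP14 lost its place without the transfected library (0.56), and ADRM1 did as well (-0.90).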

How the data were processed

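RNA-seq gene tables of established human cell lines were used as deposited. The authors made the FPKM values with Cuffdiff after trimming and alignment of 50-base single-end reads to hg19 with TopHat2 2.1.0 and Bowtie2, per the labels and the submitters' processing notes. The tables' own fold changes, test statistics, p-values and q-values were not used. Of 10 samples, 9 enter the 4 tables, and the U-2 OS library transfected with dTF plasmid was not analysed here. Whether the K562 table is the version plotted by the study was not checked.

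With 1 library per column no test was made. Log2 ratios used FPKM + 0.1, genes with 1 FPKM or more in either column, and a 2-fold threshold. Depth was estimated from low FPKM values of single-exon genes, of which 96.7% to 100% were whole reads within 3%. Counting intervals are exact 95% binomial intervals on coding reads and cover counting error only. Coding reads were estimated from FPKM, coding length and depth. Reads outside the coding sequence are left out, so the intervals can be wider than those on all reads of a gene. Coding lengths, overlaps and recurring 50-base windows came from GENCODE 44 on GRCh37, and promoters from RefSeq on GRCh38.p14. Python 3.11.15, pandas 2.3.3 and scipy 1.17.1 were used, and scripts were tested on simulated data.

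Members, lists and motifs were chosen with earlier results of these data known. Named genes are the 5 highest and 5 lowest members in each comparison, PSMB5, PSMB6, PSMB7, PSMB10, PSME1, PSME2, all assembly factors, members under 1 FPKM in all columns, and members and listed pathway genes past 2-fold, of which some pathway genes are not reported here. PSMB4, PSMA4, PSMB1, PSMF1, NFE2L1 and the line markers were named after their values were seen where this rule does not take them. Alternatives to the pseudocount, filter, scaling and pooled column were run.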

Additional observations from a re-analysis of the deposited data

Results flagged for a closer look

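PSMB10 lay on opposite sides of its mock library in different lines, its log2 ratio being -0.43 in K562 but 1.60 in SK-N-SH and 2.65 in U-2 OS. PSMD7 was at 0.31 in SK-N-SH and -1.37 in K562. Both were picked out because their counting intervals lay away from 0 in opposite directions in different lines and the ratio passed 2-fold in at least 1 line. The intervals of 4 more members, PSMB6, PSMC2, PSME4 and PSMG2, also lay on opposite sides of 0, but none of these passed 2-fold in any of the 3 lines. The differences between lines were not tested, since each condition is 1 library and the collection times differed.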

How the results depend on the processing

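Over 75 alternatives to the medians and 2-fold counts, 68 stayed within the spread allowed for a median or within 1.5 times the count, and 7 did not. That spread was 0.38 for U-2 OS, 0.30 for SK-N-SH, 0.20 for K562 and 0.28 over U2OS-dTF. The main medians were 0.39, 0.24, 0.58 and -0.05. For SK-N-SH and over U2OS-dTF the spread exceeded the median, so staying within it could not settle the median's size or sign. Upper-quartile scaling moved the median over U2OS-dTF to 0.16, which still counted as within. In U-2 OS the 5 members 2-fold higher became 3 with a pseudocount of 1 FPKM and 3 with a filter of 10 FPKM, both by construction reducing the low genes PSMG4 and PSMD9. Centring on the median of genes with 1 FPKM or more in both columns took the K562 median from 0.58 to 0.29 and that over U2OS-dTF from -0.05 to -0.36, with 9 members 2-fold lower in place of 5. Upper-quartile scaling gave 7 higher and 3 lower over U2OS-dTF in place of 4 and 5. The cause was not tested for these scalings. No replicate could be left out, since each column is 1 library or a mean, and the column without the transfected library is given in the report. No paired analysis was possible because the result comes from no test. About 3 coding reads for PSMG4 in mock U-2 OS set the limit for the lowest members.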
